A study of Homo sapiens with 21 samples.

Results

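Metallothioneins are small, cysteine-rich proteins that hold zinc and copper ions through the sulphur atoms of their cysteines. They buffer free zinc, store it for other proteins and bind toxic metals such as cadmium. Their genes are switched on by metals through the zinc-sensing transcription factor MTF1, which binds metal response elements in their promoters, and also by glucocorticoids and by oxidative stress. In humans the genes lie side by side on chromosome 16. MT2A and MT1X are widely expressed in epithelial cells, whereas MT1G is known for high levels in liver and kidney.

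The members were every gene in the count table whose symbol was MT2A or MT1 followed by a single letter. RefSeq lists 10 such genes, and 4 of them had a row among the 16553 genes of the table: MT2A, MT1X, MT1G and MT1F. MT1A, MT1B, MT1E, MT1H, MT1L and MT1M had no row and were not analysed here, and neither was any of 11 other metallothionein genes and pseudogenes, MT3 and MT4 among them. The least abundant gene of the table reached 0.501 CPM, that is, counts scaled to library size, in its highest library, so the table holds no gene of lower level. All 4 members passed the filter on low counts when all groups were fitted together. MT1G passed it in a fit of only 2 groups where primed and treated aggregates, its highest group, were among them, and not otherwise. MT1X and MT1G had been chosen by their measured counts, since they were seen to change strongly with 3D culture and with trastuzumab priming. Values of those contrasts are therefore given for all 4 members as a description, with no test. The comparisons that were tested share their reference groups with those contrasts, so the tests of MT1X and MT1G are not independent of the choice.

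The cells were AU565, a human breast cancer line of epithelial type with an amplified ERBB2 gene, and trastuzumab is an antibody against its product HER2. The 21 libraries form 7 groups of 3. Primed and treated aggregates came from monolayer cells given 20 µg/ml trastuzumab for 24 h, then cultured for 96 h in 3D (liquid overlay, 5% matrigel) so that they formed aggregates, and then given 50 µg/ml for 24 h. Treated aggregates had the same 96 h of 3D culture and the 50 µg/ml dose, with no earlier exposure. Primed aggregates had the 20 µg/ml dose as a monolayer and the 96 h of 3D culture, and untreated aggregates the 3D culture alone. Primed monolayers had 20 µg/ml for 24 h and then 96 h more as flat cultures, acute monolayers had 20 µg/ml for 24 h, and untreated monolayers had no antibody. The 2 groups given 50 µg/ml were also 24 h older than the other aggregates, and the labels give no culture time for untreated monolayers. All groups are the same wild-type line in serum-containing medium, so the data describe 1 cell line. No label says whether the 3 replicates of a group were grown separately, so the p-values measure the spread between these samples, which may be technical.

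Library totals were 15005070 to 26921113 counts. All 8 markers of a luminal HER2 line were detected in every group, with summed levels of 13000 to 20300 CPM. One of these markers, CDH1, was at only 0.0449 to 3.05 CPM and added almost nothing to the sum. Transcripts of other tissues divided the libraries into 2 sets. The melanocyte gene TYRP1 was at 5.7 to 33.1 CPM in the 12 libraries of primed and untreated aggregates and of acute and untreated monolayers, and at most 0.256 CPM in the other 9. The neuronal gene SNAP25 was at 4.36 to 17.3 CPM in those 9 libraries, of primed and treated aggregates, treated aggregates and primed monolayers, and at most 0.507 CPM in the 12. Comparisons between the sets therefore carry the library set together with the treatment, and the 2 cannot be told apart there. The heart muscle gene MYH7 was above 10 CPM in 6 libraries: acute monolayers 2 and 3, untreated monolayers 1 and 2, and untreated aggregates 1 and 2.

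The coding sequences of the 4 members are shown because they carry the cysteines that bind metal and because they are so alike. They are printed from GENCODE annotation on GRCh38, 5′ to 3′ on the coding strand, with the cysteine codons TGC and TGT in capitals.
MT2A: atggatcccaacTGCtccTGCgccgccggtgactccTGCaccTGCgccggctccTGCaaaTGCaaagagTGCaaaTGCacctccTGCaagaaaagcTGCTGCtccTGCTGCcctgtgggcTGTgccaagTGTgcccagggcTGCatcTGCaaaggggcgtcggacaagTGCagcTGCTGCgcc
MT1X: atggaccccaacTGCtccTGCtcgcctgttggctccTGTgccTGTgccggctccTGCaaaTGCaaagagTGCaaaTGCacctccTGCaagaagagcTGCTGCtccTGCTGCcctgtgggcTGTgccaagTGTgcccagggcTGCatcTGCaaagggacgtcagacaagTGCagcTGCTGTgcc
MT1G: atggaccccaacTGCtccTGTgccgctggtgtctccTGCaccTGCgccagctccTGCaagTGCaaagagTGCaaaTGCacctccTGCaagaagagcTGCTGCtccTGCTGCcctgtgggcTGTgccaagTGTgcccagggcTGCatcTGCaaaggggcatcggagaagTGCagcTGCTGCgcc
MT1F: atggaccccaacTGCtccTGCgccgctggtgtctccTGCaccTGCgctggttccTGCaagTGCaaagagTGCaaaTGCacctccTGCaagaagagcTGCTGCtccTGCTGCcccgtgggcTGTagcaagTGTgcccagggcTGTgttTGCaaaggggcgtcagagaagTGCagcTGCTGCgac
Each ran over 183 bases and 61 codons, and 20 of these, or 32.8%, were cysteine codons. The cysteine codons were spelled TGC or TGT in different proportions, with 5 TGT codons in MT1X, 3 in MT1G, 3 in MT1F and 2 in MT2A. MT2A and MT1X were identical at 169 of 183 bases (92.3%), MT1X and MT1G at 91.3%, and the closest pair, MT2A and MT1G, at 95.1%.

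MT1X and MT1G shared an unbroken run of 96 bases. Of all stretches of 50 bases along the annotated transcript, 20.2% of those of MT1G and 16% of those of MT1X were also found in the transcript of another metallothionein, compared with 2.17% for MT2A and 3.59% for MT1F. How reads that match several genes were counted, and whether strand was used, is not given in the sources used here. MT1G and MT1X counts could therefore share reads, and the low MT1G counts are uncertain for that reason.

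In GRCh38.p14 all 4 genes lie on chromosome 16 and have 3 exons. MT2A (Entrez 4502) spans chr16:56608584-56609497, MT1F (4494) chr16:56657959-56659303 and MT1X (4501) chr16:56682470-56684196, all on the plus strand. MT1G (4495) spans chr16:56666730-56668065 on the minus strand. The promoters of MT2A and MT1X are shown from RefSeq (GRCh38.p14, plus strand, 250 bases before and 50 after the start of the gene). MT1G and MT1F had no entry among the promoters used here. Capitals mark the core of the metal response element, TGCACNC or TGCGCNC, on either strand.
MT2A promoter, chr16:56608334-56608633: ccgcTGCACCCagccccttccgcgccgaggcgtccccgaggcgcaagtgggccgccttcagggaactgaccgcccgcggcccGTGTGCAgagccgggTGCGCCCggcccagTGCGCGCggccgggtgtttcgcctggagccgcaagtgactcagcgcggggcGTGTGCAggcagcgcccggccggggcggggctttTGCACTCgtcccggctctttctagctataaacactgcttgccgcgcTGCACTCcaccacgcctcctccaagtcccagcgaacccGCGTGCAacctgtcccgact
MT1X promoter, chr16:56682220-56682519: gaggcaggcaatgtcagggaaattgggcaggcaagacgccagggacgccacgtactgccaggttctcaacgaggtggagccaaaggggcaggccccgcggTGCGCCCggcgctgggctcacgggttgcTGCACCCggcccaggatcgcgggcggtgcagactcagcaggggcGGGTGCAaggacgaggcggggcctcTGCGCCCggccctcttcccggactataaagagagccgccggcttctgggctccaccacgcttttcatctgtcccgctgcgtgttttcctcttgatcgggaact
The MT2A promoter held 8 matches to the core, 5 on the plus and 3 on the minus strand. The MT1X promoter held 4, with 3 on the plus and 1 on the minus strand. Among 35116 RefSeq promoters of this length 29.6% held at least 1 match and 0.601% held 4 or more. A match began at position -54 in MT2A and at -53 in MT1X, counted from the start of the gene. TGACNNNGC, the antioxidant response element core, occurred once in each, as it did at least once in 13.3% of all promoters. ACGTG, the hypoxia response element core, occurred once in MT1X and was not found in the MT2A window, and 21.4% of all promoters held it. None of these matches overlapped another. They are matches of letters, and no binding was measured.

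MT2A was the most abundant member, and its level ran from 8.23 CPM in an untreated monolayer to 197 CPM in a treated aggregate. Its 3 libraries were at 178, 156 and 150 CPM in primed and treated aggregates, 196, 197 and 168 CPM in treated aggregates, 107, 106 and 103 CPM in primed aggregates and 70.5, 59.6 and 67.8 CPM in untreated aggregates. In flat culture they were at 66.5, 54.1 and 51.2 CPM in primed monolayers, 38.5, 36.0 and 46.0 CPM in acute monolayers and 8.99, 10.6 and 8.23 CPM in untreated monolayers. The untreated monolayers stood below every other library. By group mean, treated aggregates (187 ± 16.5 CPM) and primed and treated aggregates (161 ± 15.1 CPM) overlapped at the top (SD, n = 3 each). Untreated aggregates (66.0 ± 5.69 CPM) and primed monolayers (57.3 ± 8.15 CPM) also overlapped, and the other neighbours in the order did not.

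MT1X covered a wider range than MT2A, with a 94.1-fold span between its highest and lowest group means, compared with 20.2-fold for MT2A. Its libraries were at 29.7, 25.7 and 25.1 CPM in primed and treated aggregates, 28.5, 26.0 and 22.9 CPM in treated aggregates, 18.5, 15.1 and 13.0 CPM in primed aggregates and 15.2, 14.0 and 14.9 CPM in untreated aggregates. The monolayers were at 3.84, 4.6 and 3.67 CPM when primed, 1.04, 1.18 and 1.03 CPM when acutely exposed and 0.281, 0.390 and 0.185 CPM when untreated. Every aggregate library was above every monolayer library. The first pair of groups overlapped (26.8 ± 2.51 and 25.8 ± 2.80 CPM), and so did the primed and the untreated aggregates (15.5 ± 2.80 and 14.7 ± 0.605 CPM), whereas the 3 monolayer groups stood apart from one another. Per kilobase of exon, the level of MT2A in treated aggregates was 466 ± 41.1 CPM and that of MT1X 63.8 ± 6.93 CPM. In untreated monolayers the same levels were 23.1 ± 3.03 CPM for MT2A and 0.706 ± 0.254 CPM for MT1X.

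MT1G was scarce everywhere except in the 2 groups given the second dose. Its counts were 36, 46 and 114 in primed and treated aggregates (1.62, 1.93 and 4.20 CPM) and 24, 5 and 22 in treated aggregates (1.03, 0.229 and 0.939 CPM). Primed aggregates had 3, 4 and 7 counts and untreated aggregates 1, 2 and 0. Primed monolayers had 3, 3 and 2 counts, acute monolayers 1, 3 and 1, and untreated monolayers 0, 5 and 1. Primed and treated aggregates lay above all other libraries, and replicate 3 stood well above its 2 partners. A count of 0 allows up to 3 counts, for counting error only, and from the treated aggregates downward each group overlapped the next. MT1F was at 0.934 ± 0.174 CPM in its highest group, primed and treated aggregates, and at 0.234 ± 0.302 CPM in its lowest, primed monolayers, and all neighbours in its order overlapped (SD, n = 3 each).

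**Figure D1:**
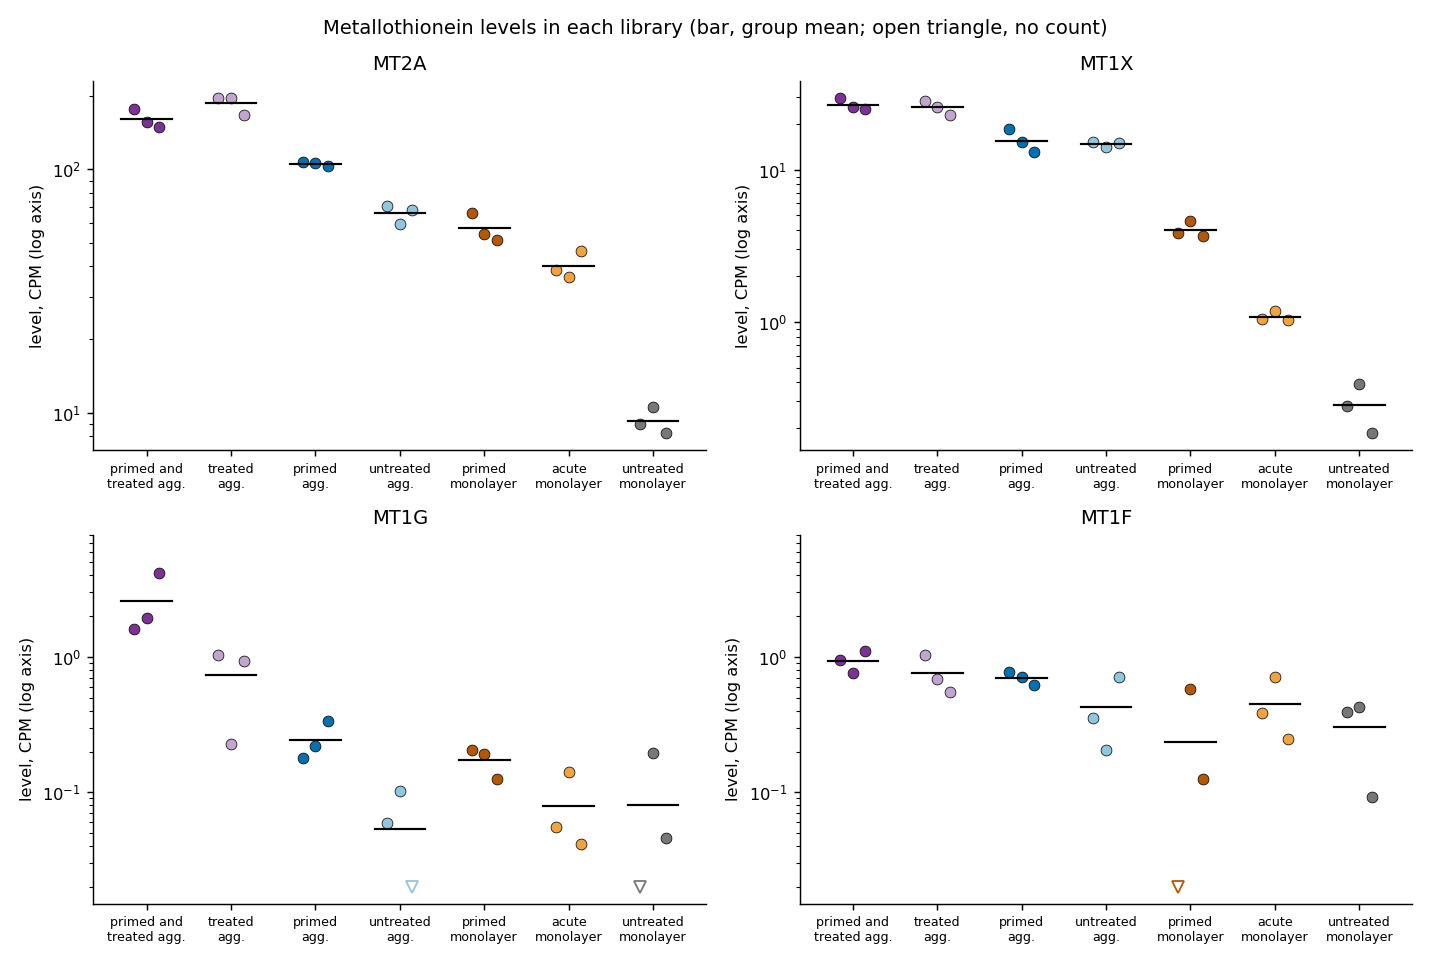
Levels of MT2A, MT1X, MT1G and MT1F in CPM on a log axis, 1 point per library and a bar at the mean of each group of 3; open triangles mark libraries with no count. MT2A and MT1X are highest in the aggregates given the second dose and lowest in untreated monolayers, MT1G stands out in primed and treated aggregates, and MT1F overlaps between neighbouring groups.

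Acute exposure asked what 24 h of antibody does to cells in flat culture. MT2A and MT1X were both higher in acute monolayers, MT2A by 4.31-fold and MT1X by 3.66-fold. MT2A was at 36.0 to 46.0 CPM in the 3 acute libraries and at 8.23 to 10.6 CPM in the 3 untreated ones, a log2 fold change of 2.11 (SE 0.132, edgeR adjusted p = 3.9e-10). MT1X had 69 counts over the acute libraries and 19 over the untreated ones, and its log2 fold change was 1.87 (SE 0.343, edgeR adjusted p = 9.99e-05). Neither gene overlapped between the groups, though 10% of random orders of 3 against 3 libraries show no overlap either. Only 0.182% of the 15969 genes tested had a log2 fold change above that of MT2A and 0.219% one above that of MT1X.

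MT1G (5 and 6 counts, acute and untreated) and MT1F (28 and 20 counts) did not pass, with log2 fold changes of -0.20 (SE 1.03, edgeR adjusted p = 0.923) and 0.52 (SE 0.589, edgeR adjusted p = 0.596). Thus 2 of 4 members rose, where 11.3% of all genes tested rose and 8.91% fell, and the members' median log2 fold change was 1.2 beside -0.0175 over all genes. Both groups belong to the same library set. The muscle transcript MYH7 was in 2 acute and 2 untreated libraries. MT2A was at 38.5 CPM in the acute library without it and 8.23 CPM in the untreated library without it. With all 6 MYH7 libraries left out, which leaves 1 library in each of these groups, assumed to vary like the rest, MT2A still passed. MT1X then had a log2 fold change of 2.46 and an adjusted p of 0.062, so its call ended.

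The second dose was given to established aggregates. In treated against untreated aggregates 3 of 4 members rose in the fit of all groups and 2 of 4 in a fit of only these 2 groups, which MT1G did not enter. In the fit of all groups 18.8% of all genes tested rose and 17.9% fell. MT2A averaged 187 ± 16.5 CPM in treated and 66.0 ± 5.69 CPM in untreated aggregates (SD, n = 3 each), a log2 fold change of 1.5 (SE 0.102, edgeR adjusted p = 7.74e-10). MT1X averaged 25.8 ± 2.80 and 14.7 ± 0.605 CPM in the same order, a smaller change of 0.81 on the log2 scale (SE 0.109, edgeR adjusted p = 3.71e-07).

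MT1G had 51 counts over the treated and 3 over the untreated aggregates, a ratio of 13.3 per library size (95% exact interval 4.29 to 66.4). Its edgeR adjusted p was 0.00049 in the fit of all groups, which it entered only through the primed and treated libraries. With just the 2 groups fitted it was filtered out and the call ended. Leaving out 1 library moved that ratio between 9.08, without untreated aggregate 3, and 25.2, without untreated aggregate 2, which leaves a single count to divide by. MT1F did not pass, at 0.86 on the log2 scale (SE 0.53, edgeR adjusted p = 0.212). For the first 3 members every treated library was above every untreated one. Of random orders of 3 against 3 libraries, 10% show no overlap, and the share of all genes without overlap was not counted. The median of the 4 fitted changes was 1.18 beside 0.000829 over all genes. The groups are of different library sets, and the treated aggregates were older, so the antibody, the set and the age cannot be told apart.

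In aggregates that had been primed, the second dose again went with more MT2A, MT1X and MT1G, and 3 of 4 members rose where 14.9% of all genes tested rose and 14.8% fell. MT2A averaged 161 ± 15.1 CPM in primed and treated and 105 ± 2.36 CPM in primed aggregates (SD, n = 3 each), a log2 fold change of 0.62 (SE 0.0987, edgeR adjusted p = 8.71e-05). MT1X rose by 0.79 (SE 0.108, edgeR adjusted p = 8.27e-07), at 26.8 ± 2.51 CPM in primed and treated and 15.5 ± 2.80 CPM in primed aggregates. MT1G rose 10.2-fold, with 196 counts over the primed and treated and 14 over the primed aggregates, a log2 fold change of 3.36 (SE 0.505, edgeR adjusted p = 4.76e-06).

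MT1G passed the filter only through the primed and treated libraries, where it is high. These are the tested group here, so the call of MT1G, and its place among the members that rose, is not independent of the filter. MT1F had 69 and 39 counts in primed and treated and in primed aggregates and did not pass, at 0.42 (SE 0.465, edgeR adjusted p = 0.536). The members' median was 0.71 beside -0.00219 over all genes. Here too the libraries were of different sets and ages.

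**Figure D2:**
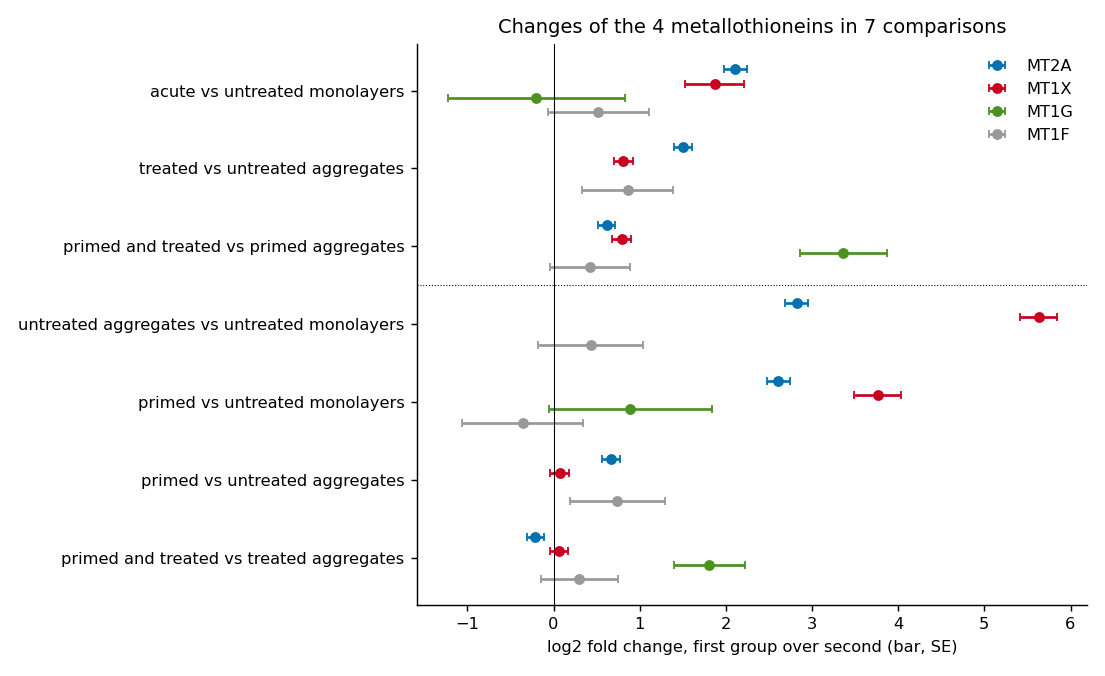
Log2 fold change, first-named group over second, of the 4 members in 7 comparisons, with bars for the standard error; the upper 3 comparisons were tested and those under the dotted line are a description. MT1G is not drawn where a group held 3 counts or fewer; MT2A and MT1X lie right of 0 in all 3 tested comparisons, and MT1X reaches 5.63 between untreated aggregates and untreated monolayers.

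The contrast of 3D with flat culture, which helped choose the members, is given as values. Untreated aggregates had 96 h of 3D culture, and the labels give no culture time for untreated monolayers. Culture form and culture time therefore cannot be told apart. MT1X was 49.4-fold higher in untreated aggregates than in untreated monolayers, with 784 and 19 counts and a log2 fold change of 5.63 (SE 0.213). MT2A was 7.05-fold higher, at 2.82 (SE 0.13). MT1G had 3 counts in the aggregates and 6 in the monolayers, a ratio of 0.609 with a 95% exact interval of 0.0986 to 2.85, so no difference was detectable at this depth. The ratio was 2.21 without untreated monolayer 2, which held 5 of the 6 counts. MT1F had 22 and 20 counts, at 0.43 (SE 0.614), and turned to -0.15 without untreated aggregate 3. Without the 6 MYH7 libraries, which leaves 1 library in each group, the log2 fold change was 6.28 for MT1X, 3.04 for MT2A and 2.87 (SE 1.14) for MT1F.

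Priming of monolayers, 24 h of antibody and 96 h more, gave the same order. MT1X was 13.6-fold higher in primed than in untreated monolayers (186 and 19 counts), at 3.76 on the log2 scale (SE 0.271), and 4.40 without the MYH7 libraries. MT2A was 6.12-fold higher, at 2.61 (SE 0.132). MT1G had 8 counts in primed and 6 in untreated monolayers, and MT1F 11 and 20 counts. For MT1F the log2 fold change was -0.36 (SE 0.706), and 1.31 (SE 1.18) without the MYH7 libraries. The groups were of different library sets. Primed monolayers also had 96 h more of culture after the antibody, and the labels give no culture time for untreated monolayers. Priming, library set and culture time cannot be told apart here.

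MT2A was higher in primed than in untreated aggregates, and MT1X overlapped between them. MT2A was at 103 to 107 CPM in primed and at 59.6 to 70.5 CPM in untreated aggregates, a log2 fold change of 0.67 (SE 0.104). MT1X was at 13.0 to 18.5 CPM in primed and at 14.0 to 15.2 CPM in untreated aggregates, and its change was 0.07 (SE 0.115). MT1G had 14 counts in primed and 3 in untreated aggregates, a ratio of 4.45 (95% exact interval 1.24 to 24.2). That ratio was 8.46 without untreated aggregate 2. Both groups are of the same library set.

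Among aggregates given the second dose, MT1G was higher in those that had been primed, and the other 3 members overlapped. MT1G had 196 counts in primed and treated and 51 in treated aggregates, 3.5-fold or 1.81 on the log2 scale (SE 0.41). Leaving out single libraries moved that value between 1.26 and 2.13. MT2A was at -0.21 (SE 0.0961), with 178, 156 and 150 CPM in primed and treated and 196, 197 and 168 CPM in treated aggregates, which overlap. MT1X was at 0.06 (SE 0.102). Both groups are of the same library set.

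The log2 fold change of MT2A with the second dose was 0.62 in primed and 1.5 in unprimed aggregates. The difference between the responses was -0.89 for MT2A (SE 0.141) and -0.02 for MT1X (SE 0.154). Both responses cross the library sets in the same direction.

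The 2 abundant members were not kept in a fixed ratio. MT1X made up 14.3 ± 0.153% of the MT1X and MT2A counts in primed and treated aggregates, 12.1 ± 0.513% in treated aggregates, 12.8 ± 1.77% in primed aggregates and 18.3 ± 0.700% in untreated aggregates (SD, n = 3 each). The share was 6.66 ± 1.19% in primed, 2.67 ± 0.496% in acute and 2.93 ± 0.681% in untreated monolayers. Every aggregate library had a larger share of MT1X than every monolayer library. Untreated aggregates had the highest shares of all, at 17.8, 19.1 and 18%, and did not overlap with any other group. Acute and untreated monolayers overlapped, at 2.64, 3.18 and 2.19% and at 3.03, 3.55 and 2.20%. The exact 95% intervals of these shares were wide in untreated monolayers, as from 0.991 to 6.93% in replicate 1, because the 2 genes had few counts there.

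**Figure D3:**
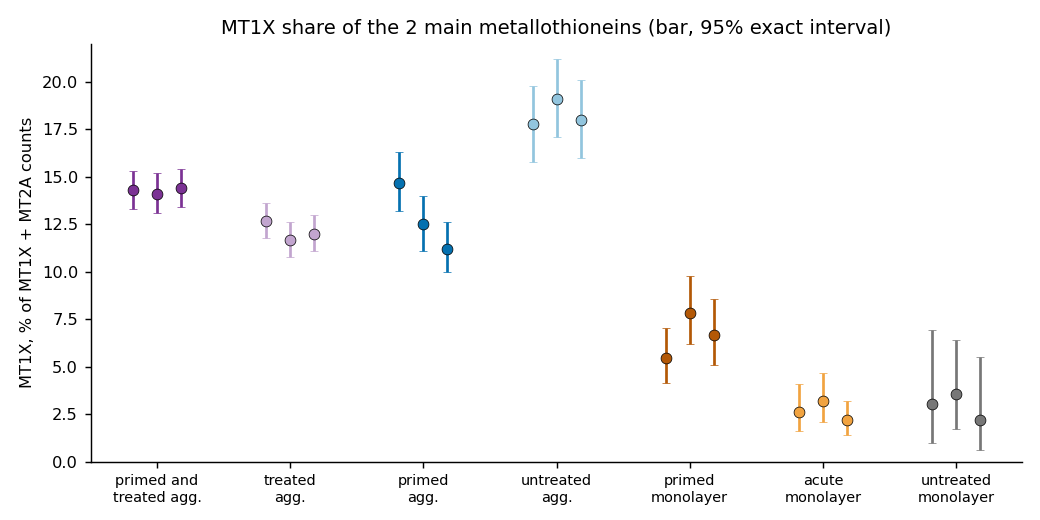
MT1X as a percentage of the MT1X and MT2A counts in each of the 21 libraries, with 95% exact binomial intervals as bars. The 4 aggregate groups lie above the 3 monolayer groups, and untreated aggregates are highest at 17.8 to 19.1%.

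MT1G was read beside transcripts of other tissues, because kidney and liver normally contain much of it. Of 12 kidney markers, all 12 were detected in primed and treated aggregates, treated aggregates and primed monolayers, 10 in primed aggregates and 8 in each of untreated aggregates, acute monolayers and untreated monolayers. Most of the summed level came from GPX3, which was found in every group. Without GPX3 the sum was 10.5 to 46.3 CPM in primed and treated aggregates, 12.5 to 36.2 CPM in treated aggregates, 1.18 to 1.65 CPM in primed aggregates and 1.74 to 2.35 CPM in untreated aggregates. It was 12 to 32.3 CPM in primed, 1.15 to 1.60 CPM in acute and 1.09 to 1.39 CPM in untreated monolayers. The tubule protein gene UMOD was at 0 in every library of primed aggregates, acute monolayers and untreated monolayers.

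UMOD was at 2.74, 22.8 and 20.8 CPM in primed and treated aggregates 1 to 3, where MT1G was at 1.62, 1.93 and 4.20 CPM. In treated aggregates UMOD was at 10.8, 0.825 and 13.4 CPM and MT1G at 1.03, 0.229 and 0.939 CPM, so the library lowest in UMOD was also the lowest in MT1G. The kidney genes LRP2 and SLC22A8 were lowest in that library too, at 4.49 and 1.15 CPM. LRP2 was at 4.49 to 5.34 CPM in treated and 0.663 to 0.898 CPM in primed and treated aggregates. SLC22A8 was at 1.15 to 2.52 and 0.21 to 0.539 CPM in the same order. SLC34A1 overlapped between these groups, at 0.504 to 1.07 and 0.359 to 1.58 CPM. The dipeptidase gene DPEP1 was not a listed kidney marker and was taken for its likeness to MT1G (correlation 0.918 over 21 libraries). It was at 1.62, 0.588 and 1.69 CPM in primed and treated and 0.473, 0.0458 and 0.726 CPM in treated aggregates, which overlap. In primed monolayers DPEP1 was at 0.137, 0.255 and 0.19 CPM. Primed monolayers carried UMOD at 11.1, 9.20 and 3.86 CPM, with MT1G at 0.205, 0.192 and 0.126 CPM. The lowest treated aggregate had 5 MT1G counts and the highest primed monolayers 3, which do not differ beyond counting error. Treated aggregates 1 and 3, with UMOD at 10.8 and 13.4 CPM, had 24 and 22 MT1G counts. Primed monolayers 1 and 2, with UMOD at 11.1 and 9.20 CPM, had 3 each. The part of kidney RNA in the MT1G result was not tested.

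Of 10 liver markers 5 were listed, and their sum, mostly the fibrinogen gene FGB, was 191 to 204 CPM in primed and treated, 211 to 241 CPM in treated, 62.1 to 73.8 CPM in primed and 77.6 to 99.4 CPM in untreated aggregates. It was 11 to 12 CPM in primed, 148 to 175 CPM in acute and 120 to 140 CPM in untreated monolayers. Albumin (ALB), the defining liver transcript, was at 0.359, 0.546 and 0.736 CPM in primed and treated aggregates, where MT1G was highest, at 0.0430, 0.0458 and 0.171 CPM in treated aggregates and at most 0.205 CPM in the other libraries. Of 11 brain markers 9 were listed, and their sum was 60.5 to 69.8 CPM in primed and treated, 66.7 to 76.1 CPM in treated, 37.0 to 40.1 CPM in primed and 30.2 to 32.4 CPM in untreated aggregates. It was 26 to 30.6 CPM in primed, 32.8 to 33.6 CPM in acute and 36.7 to 44.8 CPM in untreated monolayers. The brain metallothionein MT3 was not listed. The part of liver or brain RNA in these results was not tested.

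In treated aggregates the replicate with UMOD at 0.825 CPM had MT2A at 197 CPM and MT1X at 26.0 CPM, and the replicates with UMOD at 10.8 and 13.4 CPM had MT2A at 196 and 168 CPM and MT1X at 28.5 and 22.9 CPM. In bulk RNA, fewer cells of a type and less RNA per cell cannot be told apart.

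**Figure D4:**
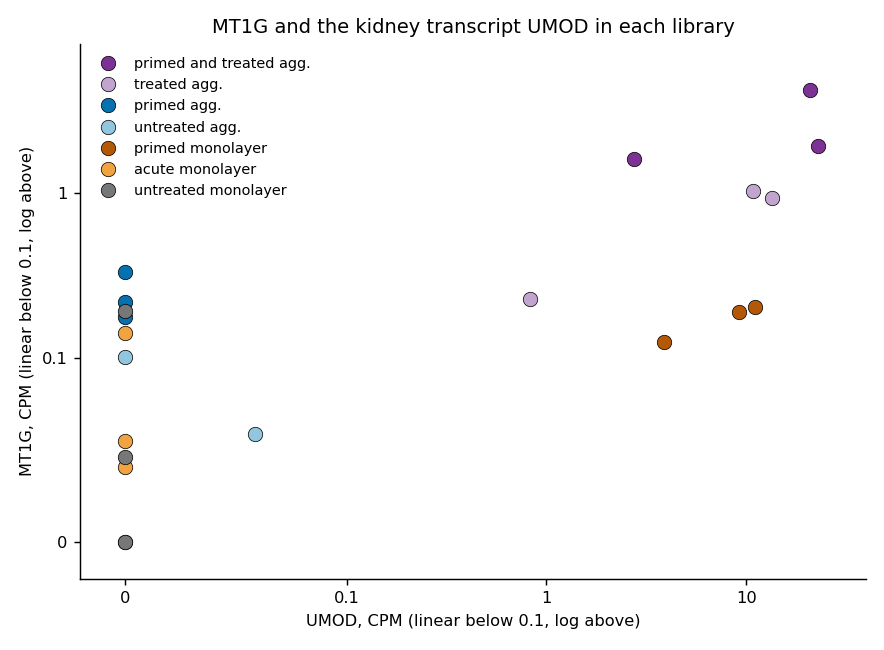
MT1G against the kidney transcript UMOD, both in CPM, 1 point per library of the 7 groups, on axes linear below 0.1 and logarithmic above. Primed and treated aggregates lie highest for MT1G, treated aggregate 2 is low in both genes, and the 3 primed monolayers combine UMOD at 3.86 to 11.1 CPM with MT1G at 0.126 to 0.205 CPM.

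The lists of related genes are given as counts, to be read beside the shares of all genes that rose and fell in the same comparison. These were 11.3% and 8.91% with acute exposure, 18.8% and 17.9% in treated against untreated aggregates, 14.9% and 14.8% in primed and treated against primed aggregates, and 32.9% and 31.1% in untreated aggregates against untreated monolayers.

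Of 20 zinc genes tested, the transporters of the SLC30 and SLC39 families and MTF1, 1 rose and 2 fell in acute against untreated monolayers. MTF1, the factor that senses zinc, was at 40.6 ± 1.25 CPM in acute and 44.8 ± 3.55 CPM in untreated monolayers and did not pass (log2 fold change -0.14, SE 0.0718, edgeR adjusted p = 0.184). SLC30A1, which exports zinc from the cell and is itself a known MTF1 target, was at 19.1 ± 1.22 CPM in acute and 19.1 ± 2.33 CPM in untreated monolayers (0.01, SE 0.0946, edgeR adjusted p = 0.935). The zinc importers SLC39A14 and SLC39A10 fell, by 0.50 (SE 0.0716) and 0.40 (SE 0.0661) on the log2 scale (edgeR adjusted p = 2.09e-06 and 3.39e-05).

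In treated against untreated aggregates 2 zinc genes rose and 9 fell. SLC30A1 was among those that rose, at 24.5 ± 1.38 CPM in treated and 15 ± 1.63 CPM in untreated aggregates (0.70, SE 0.0963, edgeR adjusted p = 4.64e-07), and SLC39A14 among those that fell (-0.66, SE 0.0695, edgeR adjusted p = 3.13e-09). In primed and treated against primed aggregates 2 rose and 11 fell. SLC30A1 rose again (0.43, SE 0.0936, edgeR adjusted p = 0.000612), and the zinc transporter SLC39A7 fell (-0.53, SE 0.0635, edgeR adjusted p = 8.84e-08). MTF1 passed in neither comparison (-0.06 and -0.13, edgeR adjusted p = 0.554 and 0.181).

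Between untreated aggregates and untreated monolayers, 5 of the 20 zinc genes rose and 9 fell. SLC39A10 had the smallest p of the list there, at 54.6 ± 2.18 CPM in untreated aggregates and 351 ± 27.4 CPM in untreated monolayers (-2.68, SE 0.0734, edgeR adjusted p = 7.02e-24). MTF1 (-0.35, SE 0.0735, edgeR adjusted p = 9.71e-05) and SLC30A1 (-0.34, SE 0.0988, edgeR adjusted p = 0.0035) both fell in the aggregates. In primed against untreated monolayers, where MT1X was also higher, SLC30A1 rose (0.45, SE 0.0948, edgeR adjusted p = 9.49e-05). The median change of the zinc list was -0.193 in untreated aggregates against untreated monolayers and -0.229 in primed against untreated monolayers. It was -0.101 in acute monolayers, -0.206 in treated aggregates and -0.194 in primed and treated against primed aggregates.

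Of 12 copper genes tested, 1 rose and none fell with acute exposure, 2 rose and 1 fell in treated against untreated aggregates, and 3 rose and none fell in primed and treated against primed aggregates. The gene that rose acutely was SLC31A1, the main copper importer, at 476 ± 9.74 CPM in acute and 344 ± 9.32 CPM in untreated monolayers (0.47, SE 0.0465, edgeR adjusted p = 1.54e-09). SOD1, the copper and zinc enzyme that removes superoxide, rose in treated against untreated (0.21, SE 0.056, edgeR adjusted p = 0.00275) and in primed and treated against primed aggregates (0.48, SE 0.0561, edgeR adjusted p = 4.7e-08).

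Other signals known to switch on metallothioneins gave mixed counts. Of 12 glucocorticoid response genes tested, 5 rose and 1 fell with acute exposure, among them ERRFI1, a feedback inhibitor of the EGF receptor family (1, SE 0.0731, edgeR adjusted p = 1.68e-12), and the glutamine synthetase GLUL (0.51, SE 0.049, edgeR adjusted p = 7.01e-10). In treated against untreated aggregates 6 rose and 2 fell, and in primed and treated against primed aggregates 2 rose and none fell, with the transcription factor CEBPD rising in both (1.07 and 1.2, edgeR adjusted p = 1.71e-06 and 5.35e-07).

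Of 13 oxidative stress genes, 3 rose and 3 fell acutely, 4 rose and 2 fell in treated against untreated aggregates, and 9 rose and 1 fell in primed and treated against primed aggregates. In the last of these the quinone reductase NQO1 was at 369 ± 12.9 CPM in primed and treated and 257 ± 20.5 CPM in primed aggregates (0.53, SE 0.052, edgeR adjusted p = 2.08e-09). The cystine importer SLC7A11 fell acutely (-0.57, SE 0.0879, edgeR adjusted p = 1.53e-05).

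Most hypoxia genes were higher in untreated aggregates than in untreated monolayers, as MT2A and MT1X were. Most fell in treated and in primed aggregates against untreated ones, and in primed and treated against primed ones. In untreated aggregates against untreated monolayers 11 of 12 rose and none fell. The prolyl hydroxylase EGLN3, which is itself induced by low oxygen, was at 227 ± 16.8 CPM in untreated aggregates and 10.3 ± 0.800 CPM in untreated monolayers (4.47, SE 0.0821, edgeR adjusted p = 2.54e-30). In treated against untreated aggregates none rose and 11 fell, with EGLN3 at 72.3 ± 5.43 CPM in treated aggregates (-1.65, SE 0.0664, edgeR adjusted p = 4.08e-19). In primed and treated against primed aggregates 1 rose and 8 fell, with EGLN3 at -0.78 (SE 0.0666, edgeR adjusted p = 1.04e-10). In primed against untreated aggregates, both of 1 library set and without the second dose, none rose and 10 fell, where 11.5% of all genes rose and 9.66% fell. EGLN3 was then at 120 ± 4.45 CPM in primed aggregates (-0.93, SE 0.0649, edgeR adjusted p = 5.69e-12). In primed against untreated monolayers 3 rose and 6 fell, where 33.7% of all genes rose and 31.6% fell. With acute exposure 5 hypoxia genes rose and none fell.

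**Figure D5:**
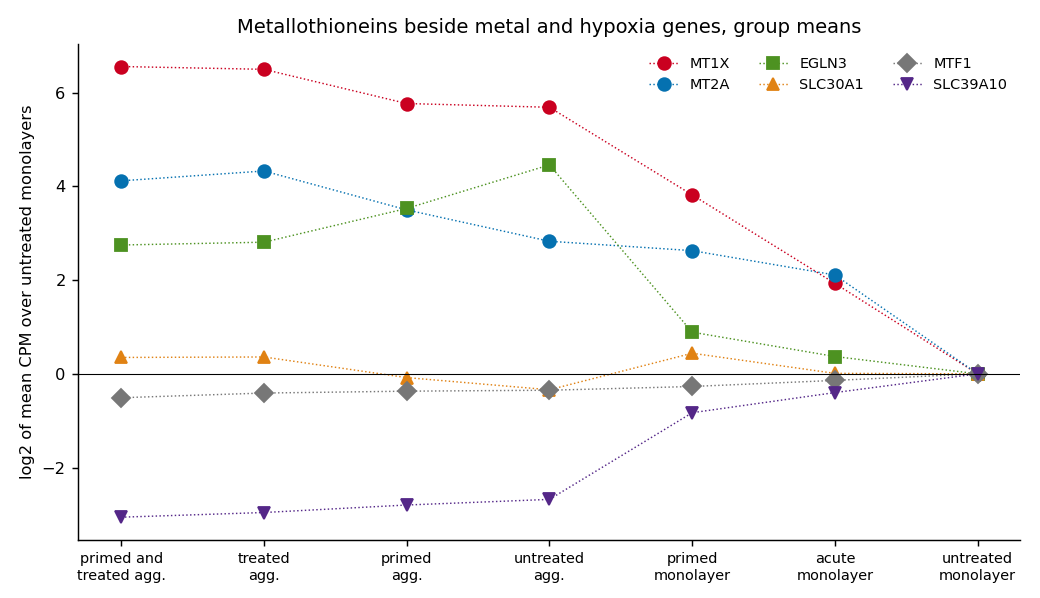
Group means of MT1X, MT2A, the hypoxia gene EGLN3, the zinc exporter SLC30A1, the zinc sensor MTF1 and the zinc importer SLC39A10, as log2 of CPM over untreated monolayers; dotted lines only join points of a gene. EGLN3 peaks in untreated aggregates at 4.46 and is lower in the 3 other aggregate groups, and SLC39A10 lies between -3.06 and -2.68 in the aggregates.

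Of 10 neighbouring genes on chromosome 16 that were tested, 2 rose and 2 fell with acute exposure, 2 rose and 1 fell in treated against untreated aggregates, and 2 rose and 3 fell in primed and treated against primed aggregates. Their median log2 fold changes were -0.037, -0.005 and -0.083. HERPUD1, a gene of the endoplasmic reticulum stress response, rose acutely (0.30, SE 0.0487, edgeR adjusted p = 1.78e-05) and fell in primed and treated against primed aggregates (-0.32, SE 0.0482, edgeR adjusted p = 3.55e-06).

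Likeness of pattern was measured by Pearson's correlation of log2(CPM + 0.5) over the 7 group means, among 5007 candidate genes, as a description with no test. The groups share library sets, so a high value can arise from the set. MT1X was most like PCED1A (r = 0.999), the glutathione transferase GSTO2 (0.996), the immediate early transcription factor EGR1 (0.995), the LIM protein FHL3 (0.995) and BBC3, which codes for the cell death protein PUMA (0.994). BBC3 averaged 28.1 CPM in primed and treated aggregates, 27.2 CPM in treated aggregates, 20.2 CPM in primed aggregates, 19.9 CPM in untreated aggregates, 13.7 CPM in primed monolayers, 9.75 CPM in acute monolayers and 6.67 CPM in untreated monolayers, the same order of groups as MT1X.

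MT2A was most like SH3TC1 (0.989), the adhesion receptor ADGRF1 (0.988), the secreted protein MSMB (0.982) and the RNA-binding protein RBPMS (0.98). ADGRF1 averaged 76.9 CPM in primed and treated aggregates and 3.22 CPM in untreated monolayers. Between them, MT2A and MT1X correlated at 0.934 over groups and 0.931 over the 21 libraries. MT1G was most like PKD1L2 (0.98), the dipeptidase DPEP1 (0.976), the defensin DEFB1 (0.947), the tyrosine breakdown enzyme HPD (0.931) and RAPGEF4 (0.923). DPEP1 and DEFB1 reached the mean of 1 CPM asked of candidates in primed and treated aggregates alone, the group where MT1G is highest, so their likeness is partly set by that filter. Both were also higher in the library set with SNAP25. DPEP1 averaged 1.3, 0.415 and 0.194 CPM in primed and treated aggregates, treated aggregates and primed monolayers, and at most 0.059 CPM in the other groups. DEFB1 averaged 1.65, 0.667 and 0.367 CPM, and at most 0.0658 CPM. HPD did not divide this way, at 0.366 CPM in primed monolayers and 0.56 CPM in primed aggregates. Whether these transcripts came from another tissue was not tested.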

How the data were processed

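Per the labels' protocols, TRIzol extraction and the TruSeq kit gave 21 total RNA libraries. The authors deposited raw counts per gene, made with featureCounts on hg38 per the submitters' processing notes, which also name limma; versions, read length and strand settings are not given in the sources used here. Sample titles named the columns, except that the primed aggregate columns carry a word missing from the titles and were assigned by elimination.

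Counts were tested in edgeR 4.0.16 (R 4.3.3) with TMM scaling, filterByExpr, a mean for each of 7 groups (residual degrees of freedom, 14), robust two-sided quasi-likelihood tests and Benjamini-Hochberg adjustment over the 15969 genes tested, at a threshold of 0.05. Filtering took out 584 genes, which held 0.0116% of counts. CPM uses TMM-scaled library sizes, and SE is that of the log2 fold change. The 3 comparisons of recent antibody exposure were tested, and the 4 of culture form or priming, and the difference between the second-dose responses, are described. The reference groups of the tested comparisons (untreated monolayers, untreated aggregates and primed aggregates) also belong to the described ones. Where a group held 3 counts or fewer, a count ratio with an exact 95% interval replaces the fitted value. Intervals and floors cover counting error only.

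Totals of 15005070 to 26921113 counts gave a biological coefficient of variation of 5.98%. Chi-squared per degree of freedom between replicates was 2.4 to 10.7, where counting error alone gives about 1, so no library was a copy of another. The steps were tried on simulated data of the acute and untreated monolayers alone (14770 genes, fitted as 2 groups). They called 67% of 100 genes set to change by 1.5-fold, 85% of 100 set to change by 2-fold, and 4.4% of calls were false. The fit of all 7 groups, which gave the reported tests, was not simulated.

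The members and gene lists were chosen with earlier results of these data known. Named genes are the members, the 5 genes most like MT1X, MT1G and MT2A (mean of at least 1 CPM in a group, a range of at least 1 log2 unit over group means), and from each list the 2 smallest p in a comparison, plus MTF1, SLC30A1, SLC39A10 and MT3; marker genes come from fixed lists. A gene that this rule takes is not reported here. Sequences come from GENCODE v29 and RefSeq. Alternatives were DESeq2 1.42.0, limma voom (limma 3.58.1), no filter, RLE size factors, a block for the replicate number, a fit restricted to the groups compared and leaving out each replicate. Leaving out the 6 libraries with MYH7 above 10 CPM was added after the data were seen.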

Additional observations from a re-analysis of the deposited data

Results flagged for a closer look

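By group means, priming went with lower MT2A in aggregates with the second dose and higher MT2A in aggregates without it. All 3 primed and treated aggregates, at 178, 156 and 150 CPM, lay below the mean of treated aggregates (187 CPM). These groups overlapped, however, since treated aggregate 3 was at 168 CPM. All 3 primed aggregates, at 107, 106 and 103 CPM, lay above the mean of untreated aggregates (66.0 CPM). The log2 fold change with priming was -0.21 (SE 0.0961) among treated and 0.67 (SE 0.104) among untreated aggregates, and the difference was -0.89 (SE 0.141). The difference was not tested, because priming was among the contrasts used to choose the members. Each of the 2 changes lies within 1 library set.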

How the results depend on the processing

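The counts of members that rose (2, 3 and 3 of 4 in the acute, treated and primed and treated comparisons) stayed as they were under DESeq2, RLE size factors, limma voom, no filter and each single replicate left out. The treated and the primed and treated counts include MT1G, which entered the filtered fits only through the primed and treated libraries. In a fit restricted to the groups compared the treated count was 2, since MT1G was filtered out, and the other counts were the same. Without the 6 MYH7 libraries the acute count was 1, since MT1X no longer passed. The replicate number as a block left 2, 3 and 3 members called, with 3157, 5783 and 4708 of all genes (3222, 5856 and 4754 without it). Same-numbered libraries did not as a rule deviate together (median r = -0.0381 over 63 pairs, from -0.3 to 0.371). However, r was above 0.1 in 17 of these pairs. Of 21 libraries, 7 were closest to their own number.

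MT1G turned direction in the acute comparison, at 0.22 under limma voom and 0.222 without the MYH7 libraries, and ranged from -0.868 to 1.43 with single replicates left out; it passed in none of these. Without the MYH7 libraries untreated aggregates against untreated monolayers gave 3.04 for MT2A and 6.28 for MT1X, and primed against untreated monolayers gave 4.40 for MT1X and 1.78 for MT1G, which was 1.34 under limma voom. With single replicates left out, MT1X ranged from 5.38 to 5.97 in the first of these comparisons, and in the second MT1X ranged from 3.53 to 4.11 and MT1G from 0.442 to 2.51. MT1F, at -0.36 in primed against untreated monolayers, was 1.31 without the MYH7 libraries. Over all alternatives the adjusted p was at most 4.14e-06 for acute MT2A and ran from 1.68e-05 to 0.062 for acute MT1X. Where MT1G could be fitted it ran from 7.14e-05 to 0.0116 in treated and from 1.18e-06 to 0.000192 in primed and treated aggregates. The order of group levels was the same under RLE size factors for all 28 member and group pairs.

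The number of all genes called moved more than 1.5-fold in 3 comparisons. It was 727 in place of 3222 for acute exposure without the MYH7 libraries. For primed against untreated aggregates it was 2177 with only the groups compared and 2176 without the MYH7 libraries, in place of 3379. For primed and treated against treated aggregates it was 2050 with only the groups compared, and 820, 695 and 780 without primed and treated replicates 1 and 2 and treated replicate 1, in place of 1274. Depth limits MT1G and MT1F, whose groups held 3 to 196 and 11 to 69 counts.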
